A study of Mus musculus with 12 samples.

Results

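B-lineage cells carrying RNA of the surrogate light chain were studied in mouse liver late in gestation (embryonic stage E16.5) and shortly after birth (postnatal day P3). A droplet-based single-cell RNA library reports, for each barcode (nominally 1 cell), the number of unique molecular identifiers (UMIs) per gene. A barcode was kept if it had 1000 UMIs or more and no more than 15% of them came from mitochondrial genes. Of these, the cells were chosen by their own RNA: a barcode was a member if it held at least 3 UMIs of Vpreb1 and Igll1 together and at least 1 UMI of Cd79a. The rule selected 10074 of 184493 barcodes, and these are called gated cells below. Because the levels of Vpreb1, Igll1 and Cd79a chose the cells, their values are given as description and without a test.

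Surrogate light chain is the stand-in that early B cells use before they have rearranged an immunoglobulin light chain. The proteins of Vpreb1 or Vpreb2 and of Igll1 (lambda5) pair with the immunoglobulin mu heavy chain and the signalling subunits Cd79a and Cd79b to form the pre-B cell receptor, which tests the new heavy chain and drives a burst of division. In the mouse, fetal liver is a main site of this step before it moves to the bone marrow, and fetal B lymphopoiesis is known for antibodies with few of the extra nucleotides that terminal deoxynucleotidyl transferase (Dntt) adds at V(D)J junctions.

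The livers came from crosses of Jag1Ndr/+ mice and were labelled Jag1+/+, Jag1Ndr/+ or Jag1Ndr/Ndr, where Ndr is the Nodder allele of the Notch ligand gene Jag1. The labels give 2 individuals for each genotype and stage, 12 samples in all. Whole liver was digested and depleted of dead cells, and the enzymes differed, with TrypLE used for E16.5 livers alone. Homozygous pups at P3 were recognised by jaundice, and their controls were genotyped afterwards.

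From the 12 deposited matrices 9 libraries were used. A single E16.5 matrix had been deposited under both Jag1+/+ replicate 2 and Jag1Ndr/+ replicate 2, and it entered once, as the shared library. At P3, barcodes recurred in 6 of 15 matrix pairs, at 53.4% to 100% of the smaller matrix. The samples labelled Jag1+/+ replicates 1 and 2 were used as libraries A and B, whose genotype is unclear because most of their barcodes recurred in matrices with other genotype labels. The 15145 barcodes of Jag1Ndr/Ndr replicate 1 not present in A formed library C, and Jag1Ndr/+ replicate 1 was library D. Below, values stand in this order: E16.5 Jag1+/+ replicate 1, the shared library, Jag1Ndr/+ replicate 1, Jag1Ndr/Ndr replicates 1 and 2, then P3 libraries A, B, C and D. No pair of these 9 libraries had more than 2 barcodes of gated cells in common. Because of this sharing, p-values measure the spread between these libraries rather than between animals of known genotype.

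The 250 bases before the annotated start of Vpreb1, Vpreb2, Igll1 and Vpreb3 are shown because the results turn on these genes. They were taken from RefSeq (GRCm38.p6) and are written 5′ to 3′ on the strand of the gene. Capitals mark 2 motifs searched on both strands, the EBF1-type palindrome CCCNNGGG and the E-box CAGGTG bound by E proteins, which do not overlap here. The windows lie at chr16:16869256-16869505 on the minus strand for Vpreb1, chr16:17980315-17980564 on the plus strand for Vpreb2, chr16:16863986-16864235 on the minus strand for Igll1 and chr10:75948050-75948299 on the plus strand for Vpreb3.
Vpreb1: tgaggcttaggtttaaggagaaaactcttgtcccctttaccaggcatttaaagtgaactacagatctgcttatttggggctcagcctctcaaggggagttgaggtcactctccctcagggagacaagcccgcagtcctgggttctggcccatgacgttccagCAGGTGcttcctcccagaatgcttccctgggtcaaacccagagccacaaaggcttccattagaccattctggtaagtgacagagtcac
Vpreb2: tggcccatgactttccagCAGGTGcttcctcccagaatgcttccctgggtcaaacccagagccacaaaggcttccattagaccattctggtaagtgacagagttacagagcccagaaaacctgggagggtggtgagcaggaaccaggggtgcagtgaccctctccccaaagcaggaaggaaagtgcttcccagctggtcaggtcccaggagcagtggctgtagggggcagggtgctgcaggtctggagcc
Igll1: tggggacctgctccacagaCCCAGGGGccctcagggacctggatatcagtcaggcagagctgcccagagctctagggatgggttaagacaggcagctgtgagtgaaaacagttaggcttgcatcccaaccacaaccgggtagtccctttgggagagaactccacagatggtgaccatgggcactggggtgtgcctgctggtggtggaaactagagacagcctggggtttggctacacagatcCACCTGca
Vpreb3: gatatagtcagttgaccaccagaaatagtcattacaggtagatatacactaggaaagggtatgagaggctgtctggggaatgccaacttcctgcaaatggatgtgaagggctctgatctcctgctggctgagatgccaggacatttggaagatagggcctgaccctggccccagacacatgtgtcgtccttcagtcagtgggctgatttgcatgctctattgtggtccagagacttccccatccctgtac
The Vpreb1 window held CAGGTG 88 bases before the start and the Vpreb2 window held it 232 bases before. Igll1 had CCCNNGGG at 231 bases before the start and the E-box on the other strand at 8 bases before. No match to either motif was found in the Vpreb3 window. Of all 32851 windows of this length, 11.8% held CCCNNGGG and 17.2% held CAGGTG. The Vpreb1 and Vpreb2 windows share a gapless stretch of 106 bases in which 104 are identical (98.1%). The longest coding transcripts of these genes, 766 and 759 bases, match at 739 of 759 positions (97.4%), so reads could have been split between Vpreb1 and Vpreb2 and the separate levels of the 2 genes are uncertain.

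The label was checked against its markers. Ebf1, the factor that commits cells to the B lineage and was not used by the gate, was detected in 96.4% to 99.8% of gated cells per library, against 2.59% to 6.60% of barcodes in an erythroid gate (red cell barcodes with no UMI of Cd79a or Ptprc) that served as background for free RNA. Rag1, a subunit of the V(D)J recombinase, was detected in 51.6% to 71.5% of gated cells at E16.5 and in 20.7% to 26.5% at P3. In the erythroid gate the Rag1 share was at most 2.00%. These markers did not set gated cells off from the later B gate defined below at P3, where the mean levels of that gate were 55.7 CPM for Rag1, 1125 CPM for Vpreb3 and 677 CPM for Ebf1, against 42.8, 1054 and 852 CPM in gated cells. The genes that stood out most over all other barcodes were ranked by the ratio of pooled CPM (a gene's UMIs as a share of the summed UMIs, scaled to a fixed total) with 20 CPM added to both sides. Apart from gate genes, that order began with Mzb1, Ebf1, Vpreb3, Lef1 and Vpreb2, at 701, 2020.1, 1711, 305 and 225 CPM against 8.60, 65.9, 89.6, 4.12 and 1.50 CPM. Most gated cells came from E16.5, so the order describes that stage more than P3. Mzb1 stood at a mean of 833 CPM in gated cells at E16.5 and 2.83 CPM at P3, and Vpreb3 in all other barcodes at 31.7 and 187.9 CPM. Lef1 is a Wnt-pathway factor of early lymphocytes, and Vpreb3 a chaperone-like relative of Vpreb1. The ratios describe the choice of cells and are not tests. Vpreb1 and Igll1 together gave a median of 25 UMIs per cell in E16.5 Jag1+/+ replicate 1, 18 in library A and 8 in library D.

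At the edge of the gate, cells with Cd79a and exactly 3 surrogate light chain UMIs numbered 14 to 68 per library, and those with 2 UMIs, just outside, numbered 28 to 79. Ebf1 was detected in 86.8% to 98.5% of the former and 74.7% to 95.1% of the latter at E16.5, and in 87.0% to 97.7% and 96.4% to 100% at P3. The gate therefore cuts through a continuous range of UMI counts.

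Gated cells carried a median of 6674 to 8737 UMIs per library at E16.5 and of 13261, 12447, 9221 and 5696 UMIs in libraries A to D. Summed over gated cells, a library held between 1312394 UMIs (library D, 196 cells) and 20479190 UMIs (E16.5 Jag1Ndr/+ replicate 1, 2094 cells), so values of library D are the least precise. A doublet caller marked between 7.65% (library D) and 15.7% (library A) of gated cells at P3 and between 11.6% and 15.4% in the E16.5 libraries other than the shared one, where it marked 293 of 1774. They were kept, and results without them are among the alternatives. RNA of other cells was present and moved with stage. The median share of UMIs on the globin genes Hba-a1, Hba-a2, Hbb-bs and Hbb-bt was 15.5% to 28.7% in gated cells at E16.5 and 0.252% to 0.529% at P3. The 12 erythroid marker genes summed to 158898 to 295416 CPM at E16.5 and 20087 to 51516 CPM at P3, with Ahsp at 0 in every library. The 10 hepatocyte markers summed to 1997 to 4457 and 137 to 738 CPM. Neutrophil markers summed to 4266 to 13558 CPM at E16.5 and 8787 to 17724 CPM at P3, and monocyte and macrophage markers to 343 to 622 and 498 to 898 CPM. T and NK cell markers summed to no more than 250.1 CPM in any library, with Cd8a at 0 throughout. For that reason, stage changes are also given for cells with under 10% globin UMIs, a restriction added after the data were seen. They numbered 132 to 435 cells per library at E16.5 (6.30% to 27.7% of gated cells) and 176 to 510 at P3 (85.3% to 92.0%). A minority of E16.5 cells is thus compared with most P3 cells. Whether that minority differed from the rest in more than globin RNA was not tested.

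Gated cells were a larger part of the liver before birth. They made up 8.67%, 8.60%, 7.21%, 8.55% and 5.43% of barcodes at E16.5 and 2.78%, 1.77%, 3.02% and 1.15% in libraries A to D. The lowest E16.5 library lay above the highest P3 library. The mean was 7.69% ± 1.40 (SD, n = 5) at E16.5 and 2.18% ± 0.875 (SD, n = 4) at P3, and the geometric mean was 3.72-fold lower at P3 (two-sided exact permutation p = 0.00794, the smallest that 5 against 4 libraries allow). The exact 95% binomial interval for library D was 0.996% to 1.32% and that for E16.5 Jag1Ndr/Ndr replicate 2 was 5.16% to 5.71%. Such intervals cover counting error only. With every barcode thinned to 1000 UMIs the fold between geometric means was 4.41. Of barcodes with Ptprc, the pan-leukocyte gene, gated cells were 21.2% ± 3.06 (SD, n = 5) at E16.5 and 3.43% ± 1.34 (SD, n = 4) at P3 (exact permutation p = 0.00794).

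The share of barcodes with Cd79a and no surrogate light chain UMI moved the other way. Barcodes with at least 2 Cd79a UMIs and neither Vpreb1 nor Igll1, called the later B gate, made up 0.993%, 0.349%, 0.627%, 1.41% and 0.344% of barcodes at E16.5 and 18.2%, 20.3%, 10.7% and 15.6% at P3. Every P3 library exceeded every E16.5 library, with a 24.7-fold higher geometric mean share at P3 (exact permutation p = 0.00794). Barcodes of this gate held a median of 5732 to 6531 UMIs at E16.5 and of 4271, 3126, 4938 and 2472 UMIs in libraries A to D. These medians lie below those of gated cells, and a cell whose surrogate light chain UMIs were missed would be counted here. This share was not recomputed after thinning or without doublets, so the part of depth was not tested. The name of the gate gives its rule and not a tested identity. At E16.5 its mean levels were 131 CPM for Rag1, 1382 CPM for Ebf1 and 1100 CPM for Vpreb3. At P3 its neutrophil markers summed to 18642 to 45142 CPM and its erythroid markers to 70974.5 to 135704 CPM, above the ranges of gated cells. Of the cells in both gates together, those with surrogate light chain were 91.5% ± 3.97 (SD, n = 5) at E16.5 and 12.5% ± 6.93 (SD, n = 4) at P3. The difference of -79.0 percentage points reached the same exact permutation p = 0.00794. Library C had the highest P3 value at 22.1% and library D the lowest at 6.86%. Fewer early cells and more other cells in the suspension cannot be told apart from a share.

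**Figure D1:**
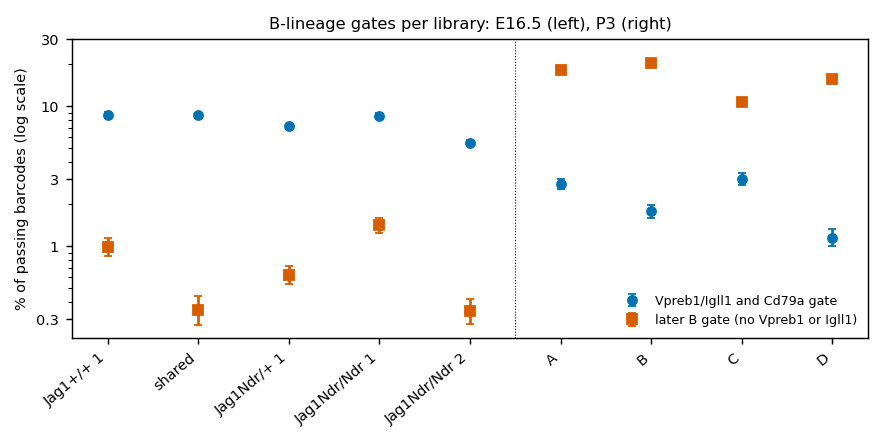
Share of barcodes in the surrogate light chain gate and in the later B gate, in percent on a log scale, for each of the 5 E16.5 and 4 P3 libraries. Points are libraries and bars are exact 95% binomial intervals. The surrogate light chain gate runs from 8.67% down to 1.15%, while the later B gate is under 1.5% in every E16.5 library and 10.7% or more in every P3 library.

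No difference by genotype passed a test of the share at E16.5. There the Jag1Ndr/Ndr libraries had 8.55% and 5.43% gated cells, mean 6.99% ± 2.21 (SD, n = 2), and the other 3 libraries 8.16% ± 0.824 (SD, n = 3; exact permutation p = 0.5, where 2 against 3 cannot go below 0.1). The values of the homozygous libraries lay on both sides of the 7.21% of Jag1Ndr/+ replicate 1. Among 12923 genes tested within gated cells (edgeR quasi-likelihood, Benjamini-Hochberg adjusted p under 0.05), 0 were higher and 0 were lower in Jag1Ndr/Ndr, so percent called was 0 in each direction. At an unadjusted p under 0.05 there were 174 genes, and DESeq2 also called 0, while without the filter on low counts edgeR called 7 higher and 13 lower. In simulated data of this design, over 12723 genes, 100% of 4-fold changes and 47% of 2-fold changes were recovered. The changes were placed only in genes with higher expected counts, and every gene was given the same spread between libraries. These rates therefore do not cover genes with low counts or a larger spread. Rag1 differed by 0.07 ± 0.236 (log2 ± SE), Vpreb2 by -0.03 ± 0.305, Notch1 by -0.11 ± 0.203 and Hes1, a Notch target, by 0.22 ± 0.183, each with an edgeR adjusted p of 1.00. Jag1 itself stood at 0.247 to 0.688 CPM at E16.5 and 0 to 0.244 CPM at P3, close to the detection limit in these cells.

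Within P3, libraries C and D carry the labels Jag1Ndr/Ndr and Jag1Ndr/+, 1 library each, so no test is possible. Of 5815 genes, 90 (1.55%) were at least 2-fold higher in gated cells of C and 83 (1.43%) in those of D with exact Poisson intervals apart, which cover counting error only. Rpl21, a ribosomal protein gene, stood at 906 CPM in C and 17.5 CPM in D, and Rbp4, the plasma retinol carrier made by hepatocytes, at 45.9 and 6.10 CPM. Mid1 stood at 1.49 CPM in C and 40.4 CPM in D, and across the other libraries it was at 1.26, 22.6, 14.7, 1.01 and 17.3 CPM at E16.5 and at 23.2 and 0.975 CPM in A and B. Mid1 thus also varied widely among libraries of E16.5. Pttg1, the securin gene, was at 42.5 CPM in C and 139.5 CPM in D.

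The comparison of stages within gated cells covered 11748 genes present in the gene lists of both stages. Counts of gated cells were summed per library and tested with edgeR's quasi-likelihood test (Benjamini-Hochberg adjusted p under 0.05), and changes are log2 values, P3 over E16.5, after TMM scaling of the totals. Plain CPM ratios lie 0.18 higher at the median. In all, 2969 genes (25.3%) were higher at P3 and 3155 (26.9%) lower, so a list in which about 1 gene in 4 changes each way is at the background. Every P3 library lay above every E16.5 library for 26.3% of these genes and below for 13%. Stage coincides with the digestion, the software release and the length of the gene list, which cannot be told apart from age. Changes in the erythroid gate are set beside those in gated cells below. That gate left out barcodes with Cd79a or Ptprc, and the share of B-lineage cells in the suspension differed with stage. A difference of changes is therefore not a stage change corrected for free RNA. The part of those shares was not tested.

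In the surrogate light chain, Vpreb1 and Vpreb2, the variable-like chains, had lower levels at P3. Vpreb1 stood at 1506, 1053, 1449, 1679.6 and 1226 CPM at E16.5 and at 618, 569.9, 673 and 762 CPM at P3. Vpreb2, which the gate did not use, stood at 248, 194, 279, 259.8 and 234 CPM and at 145, 112, 122 and 144 CPM. For Vpreb2 all 4 P3 libraries lay below all 5 E16.5 libraries, a pattern that 13% of all genes tested showed. Vpreb1 helped choose the cells, and its levels are given as description. Reads could have been split between Vpreb1 and Vpreb2, so Vpreb2 is not independent of the gate. The gate asks for a fixed number of UMIs, and UMIs per cell differed between libraries. The part of the gate in the change of Vpreb2 was not tested. Vpreb2 fell by 1.11 ± 0.186 on the log2 scale (SE; edgeR adjusted p = 0.000311). In the erythroid gate it went from a mean of 1.86 to 0.161 CPM, a larger relative drop (difference of changes 2.61 ± 0.57, edgeR adjusted p = 0.00206). Vpreb3 (1521 to 2097 CPM at E16.5, 914 to 1187 CPM at P3) fell by 1.01 ± 0.191 (edgeR adjusted p = 0.000745). Igll1, the constant-like chain, stood at 762 to 902 CPM and at 771, 531, 952 and 653 CPM, and its ranges overlapped. In cells with under 10% globin UMIs the changes of Vpreb2 and Vpreb3 were smaller, -0.36 (edgeR adjusted p = 0.0521) and -0.17 (0.415), and neither passed. The shift of this chain with stage thus varied with the globin share of the cells compared.

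The mu heavy chain and the kappa and lambda light chains described here were higher at P3. Ighm, the mu heavy chain, stood at 1253, 866, 637, 1009 and 825 CPM at E16.5 and at 1419, 1517, 1922 and 1639 CPM at P3, and rose by 0.65 ± 0.165 (log2 ± SE; edgeR adjusted p = 0.00534). The libraries of the stages did not overlap, and the change was 0.79 in globin-poor cells. Igkc, the kappa light chain, stood at 98.5, 30.7, 103, 121 and 88.2 CPM and at 429.6, 463, 459 and 396 CPM. It rose by 2.08 ± 0.327 (edgeR adjusted p = 0.000189), and the shared library had the lowest level. Iglc1, a lambda light chain, was at 0 to 3.51 CPM at E16.5 and 30.7 to 53.7 CPM at P3 and rose by 4.75 ± 0.549 (edgeR adjusted p = 1.83e-05). Igkc RNA also rose in the erythroid gate, from a mean of 2.36 to 23.5 CPM, and stood at 3814 CPM in the later B gate at P3. Igkc was found in 8.29% to 22.3% of gated cells at E16.5 and 48.0% to 66.2% at P3, against 0.917% to 2.33% and 7.99% to 14.9% of erythroid-gate barcodes. Compared with the change in the erythroid gate, Igkc changed less upward in gated cells (difference of changes -0.73 ± 0.207, log2 ± SE, edgeR adjusted p = 0.0112) and Iglc1 more upward (1.28 ± 0.435, edgeR adjusted p = 0.0303), while Ighm did not pass (0.40 ± 0.188, edgeR adjusted p = 0.105). Of the 9 receptor genes that were not gate genes, 5 rose and 2 fell, with a median of 0.65 against -0.02 for all genes. Against the change in the erythroid gate, 2 of the 9 changed more upward (Vpreb2 and Iglc1) and 2 more downward (Igkc and Cd79b, the latter by -0.60 ± 0.21, edgeR adjusted p = 0.0351). Cd79a (650.2 to 1079 and 1051 to 1263 CPM) and Cd79b (391 to 570.1 and 452 to 579 CPM), the signalling pair, had overlapping ranges. Cd79b changed by -0.09 (edgeR adjusted p = 0.692), while in globin-poor cells it rose by 0.59 (edgeR adjusted p = 0.00430).

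Of 16 genes of V(D)J recombination and end joining, 5 rose and 6 fell. The recombinase led the fall. Rag1 (chr2:101638282-101649501 in GRCm38) stood at 216, 239.7, 106, 206 and 176 CPM at E16.5 and at 30.6, 30.0, 34.4 and 76.2 CPM in libraries A to D. Library D was the highest of the P3 libraries, and the stages did not overlap. Rag1 fell by 2.40 ± 0.238 on the log2 scale (SE; edgeR adjusted p = 5.96e-06), and by 1.71 in globin-poor cells. Its neighbour and partner Rag2, at 37.6 to 70.1 CPM and 17.8 to 28.2 CPM, fell by 1.51 ± 0.148 (edgeR adjusted p = 5.57e-06). Compared with the change in the erythroid gate, neither Rag1 nor Rag2 passed. In the later B gate the mean of Rag1 also fell, from 131 to 55.7 CPM. The share of gated cells with a Rag1 UMI, after thinning to 2000 UMIs, was 19.3% to 36.8% in E16.5 libraries and 11.2% to 12.1% in P3 libraries. Hmgb2, a DNA-bending cofactor of the recombinase, fell by 0.97, and the ligase gene Lig4 by 0.66, the latter not past the threshold without libraries A and B or in globin-poor cells.

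Dntt rose from near absence. It stood at 0.172, 0.0704, 0.0989, 1.18 and 0.0736 CPM at E16.5 and at 8.52, 5.61, 11.3 and 7.62 CPM at P3, and the lowest P3 library was above the highest E16.5 library. The change was 4.43 ± 0.595 (log2 ± SE; edgeR adjusted p = 5.65e-05) and 5.04 in globin-poor cells. A Dntt UMI was found in 2, 1, 2, 18 and 1 gated cells at E16.5 and in 39, 13, 29 and 8 at P3. As shares these were 0.122%, 0.0564%, 0.0955%, 1.15% and 0.0697%, and 6.52%, 4.18%, 6.39% and 4.08%. After thinning to 2000 UMIs they were 0% to 0.127% and 1.24% to 3.57%. In the erythroid gate the share was at most 0.0376% and in the P3 later B gate at most 0.250%. Compared with the change in the erythroid gate, the rise of Dntt did not pass. Among E16.5 libraries, Jag1Ndr/Ndr replicate 1 held most of the cells with Dntt. Polm and Poll, polymerases related to Dntt that fill junctions, and the Ku subunit gene Xrcc5 also rose: Polm was at 1.51 to 3.09 CPM and 4.57 to 7.90 CPM (1.40 ± 0.261, edgeR adjusted p = 0.000678), and Xrcc5 changed by 1.11 ± 0.142.

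**Figure D2:**
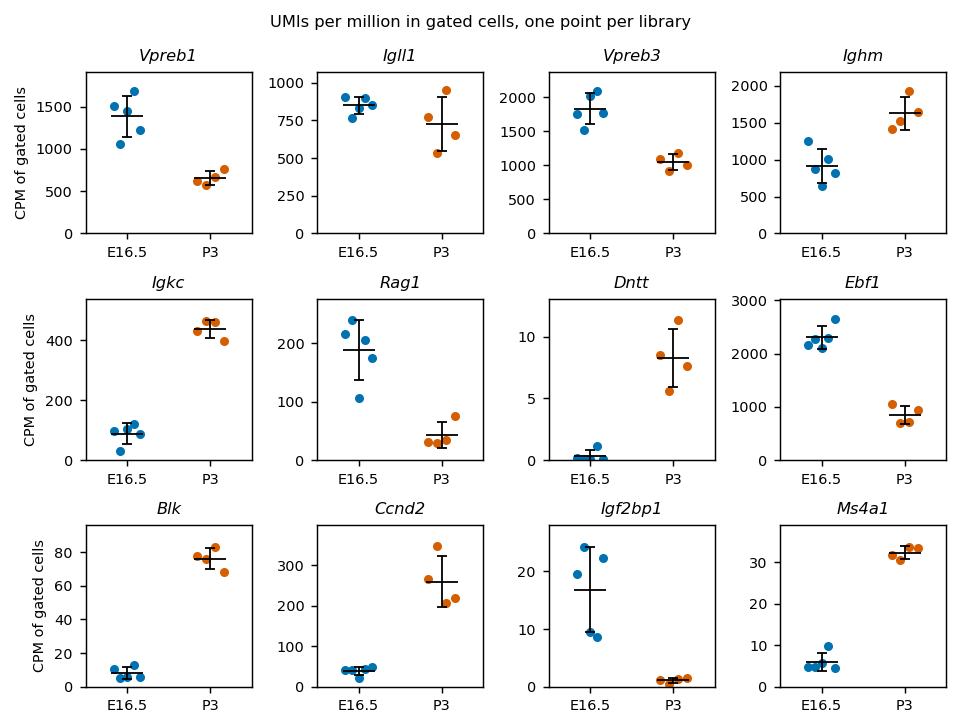
Level in CPM of gated cells (vertical axes, one panel per gene) in each E16.5 and P3 library. Points are libraries, long lines group means and bars 1 SD. Rag1 falls from 106 to 239.7 CPM at E16.5 to 30.0 to 76.2 CPM at P3. Dntt, Igkc, Blk and Ccnd2 have all P3 libraries above all E16.5 libraries, as do 26.3% of all genes tested.

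Of 20 genes of pre-B receptor signalling, 6 rose and 6 fell. Blk, a Src-family kinase of B cells, stood at 10.8, 5.14, 5.54, 12.8 and 5.67 CPM at E16.5 and at 77.5, 75.8, 83.3 and 67.9 CPM at P3. It rose by 3.08 ± 0.259 (log2 ± SE; edgeR adjusted p = 1.76e-06), and its highest E16.5 libraries were far below the P3 range. The adaptor Pik3ap1 (BCAP) rose by 2.47 ± 0.18 (5.78 to 9.34 CPM at E16.5, 39.6 to 55.3 CPM at P3), and Zap70, a kinase related to Syk, by 2.19 ± 0.289 from 0.840 to 1.40 CPM to 3.52 to 9.91 CPM. Of 7 T and NK cell markers tested, 4 rose and 0 fell, and the part of such cells in the rise of Zap70 was not tested. Plcg2, a phospholipase downstream of the receptor, rose by 0.87. The D-type cyclins rose as well. Ccnd2 stood at 42.6, 42.2, 21.6, 42.6 and 48.1 CPM and at 267, 346, 206 and 219 CPM (2.58 ± 0.198, edgeR adjusted p = 9.71e-07), and Ccnd3, the cyclin of pre-B expansion, rose by 1.21 ± 0.166. The cyclin-dependent kinase inhibitor Cdkn1b fell by 1.25 (85.5 to 124 and 37.7 to 59.7 CPM), the ERK phosphatase gene Dusp6 by 1.62 and Bcl6, a transcriptional repressor, by 1.33. Blk and Ccnd2 changed more upward in gated cells than in the erythroid gate of the same libraries, by 2.08 ± 0.255 and 2.20 ± 0.166 (interaction in edgeR, adjusted p = 1.57e-05 and 1.79e-07). In that interaction 17.4% of 12716 genes changed more upward in gated cells and 20.4% more downward, and 7 of the 20 signalling genes were among the former and 2 among the latter. For the 16 V(D)J genes these counts were 4 and 5, with Rag1, Rag2 and Dntt in neither. Among the signalling genes that did not pass the test of stage were Syk, Btk, Blnk, Lyn, Bach2, Myc and Slc7a5.

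Of 26 B-lineage transcription factors, 5 rose and 13 fell, with a median of -0.37. Against the erythroid gate the balance was the other way, with 12 changed more upward in gated cells, Lef1 and Pax5 among them, and 6 more downward (median 0.37). Ebf1 was at 2166, 2279, 2106, 2295 and 2656 CPM at E16.5 and at 1046, 694, 720.2 and 945 CPM at P3. It fell by 1.62 ± 0.175 on the log2 scale (SE; edgeR adjusted p = 1.09e-05), with no overlap between stages. Tcf4 and Lef1 (196 to 346 and 237 to 402 CPM at E16.5, 94.9 to 148 and 156 to 199 CPM at P3) fell by 1.50 and 1.09, and Myb, a regulator of progenitor growth, by 0.94. Sox4, Runx1, Foxo1 and Bcl11a fell by less, with overlapping libraries in each case. Pax5, the guardian of B-cell identity, stood at 84.8 to 199 CPM and 187 to 275 CPM and changed by 0.31 ± 0.153, which did not pass (edgeR adjusted p = 0.101). The factors that rose included Spi1 (PU.1; 23.3 to 29.6 CPM at E16.5, 80.8 to 109 CPM at P3, 1.73 ± 0.14), Irf8 (26.2 to 48.2 CPM, 121 to 154 CPM, 1.56 ± 0.134) and Ikzf3 (Aiolos; 4.20 to 12.0 CPM, 39.3 to 60.2 CPM, 2.53 ± 0.287), a factor of pre-B exit from the cycle. Spi1 and Irf8 also mark monocytes. Of the 10 monocyte and macrophage markers, 7 rose and 0 fell, and Lyz2 and Ly6c2 were not among those called. Irf8 and Tcf4 are also in the list of plasmacytoid dendritic cells, of which 2 of 7 genes tested rose and 2 fell. The part of such cells in these changes was not tested.

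Of 18 genes of interleukin-7 signalling and early progenitors, 5 rose and 5 fell. Il7r, the receptor chain on which mouse B lymphopoiesis depends, stood at 235, 198, 190.4, 173 and 314 CPM at E16.5 and at 270.3, 229, 223 and 271 CPM at P3, with overlapping ranges and a change of -0.03 ± 0.172 (edgeR adjusted p = 0.913). Crlf2, the thymic stromal lymphopoietin receptor chain, rose from 15.5 to 21.8 CPM to 29.9 to 48.5 CPM, and Socs2, a feedback inhibitor of cytokine signalling, from 23.2 to 41.7 CPM to 62.4 to 83.1 CPM (1.12 ± 0.13). Kit, the stem cell factor receptor, was at 28.5 to 55.7 CPM and 6.83 to 20.6 CPM and fell by 1.83 ± 0.256. Against the erythroid gate, 3 of the 18 changed more upward and 5 more downward. Flt3 was low at both stages, at 2.32 to 4.76 CPM and 1.07 to 4.57 CPM.

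Genes known from fetal hematopoiesis were mostly lower at P3: of 13 tested of 14, 9 fell and 2 rose, with a median of -1.36. Against the erythroid gate, 4 changed more upward and 1, Igf2bp1, more downward. Igf2bp1, an RNA-binding protein gene, stood at 19.5, 24.3, 9.44, 8.57 and 22.4 CPM at E16.5 and at 1.25, 0.488, 1.28 and 1.52 CPM at P3, and fell by 4.02 ± 0.4 (edgeR adjusted p = 6e-06). Lin28b, the inhibitor of let-7 maturation that marks fetal lymphopoiesis, was at 26.6 to 46.6 CPM and 15.5 to 24.9 CPM and fell by 1.07 ± 0.159, so it was still measured in all 4 P3 libraries. Igf2bp3 and Arid3a, known as targets of let-7, were higher at P3. Igf2bp3 stood at 41.9 to 72.7 CPM and 74.0 to 93.8 CPM and rose by 0.39 ± 0.106 (edgeR adjusted p = 0.00802), and Arid3a rose from 35.5 to 68.3 CPM to 87.6 to 97.6 CPM. The change of Igf2bp3 did not pass without libraries A and B with the homozygous label as a covariate. Lin28b and Igf2bp1 were also lower at P3 in the erythroid gate, at 6.50 against 4.46 and 9.50 against 2.60 CPM, while Igf2bp3 was at 9.48 and 9.38 CPM there.

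Genes of later B cells and of antigen presentation were higher at P3, from low levels. Of 13 genes of MHC class II presentation 9 rose and 2 fell (median 1.23), and of 18 later B-cell genes 10 rose and 2 fell (median 0.60). Of the MHC class II genes, 2 changed more upward and 2 more downward than in the erythroid gate, and 7 of 10 monocyte and macrophage markers rose in gated cells as well, whose part in this change was not tested. Cd74, the invariant chain, was at 10.7, 14.6, 7.27, 11.9 and 5.74 CPM at E16.5 and at 78.6, 111, 140.5 and 108 CPM at P3 (3.28 ± 0.216, edgeR adjusted p = 3.26e-07). Ms4a1 (CD20) was at 4.64 to 9.75 CPM and 30.5 to 33.7 CPM (2.24 ± 0.229), and Fcmr, the receptor for IgM, at 0 to 0.224 CPM and 3.07 to 8.54 CPM. All these stood higher in the later B gate at P3, at 1672, 454 and 105 CPM, and in the erythroid gate they stood at 20.2, 2.55 and 0.624 CPM. For Ms4a1 the change in the erythroid gate was the larger (difference of changes -1.91 ± 0.328, edgeR adjusted p = 0.000325). Cd22, an inhibitory receptor, and Tnfrsf13b (TACI) reached 42.2 to 64.0 and 98.7 to 121 CPM at P3 from 6.67 to 15.6 and 24.0 to 40.3 CPM, and the same interaction was 1.06 and 1.62 in favour of gated cells. Of these later B-cell genes, 5 changed more upward and 5 more downward than in the erythroid gate. S1pr1, which guides exit into blood, fell by 1.84 ± 0.152.

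**Figure D3:**
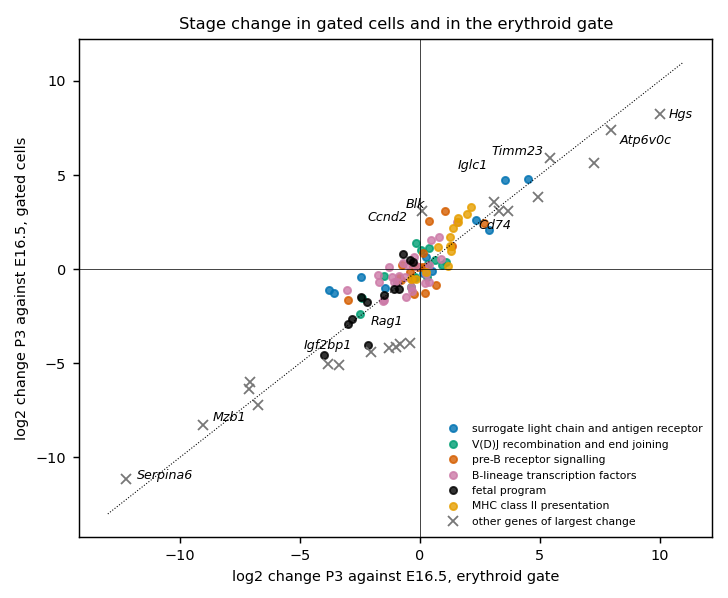
Log2 change from E16.5 to P3 in gated cells (vertical axis) against that in the erythroid gate of the same libraries (horizontal axis), 1 point per gene of the lists with named genes labelled. Colours mark the lists, crosses the other genes of largest change and the dotted diagonal equal change. Blk and Ccnd2 lie above it, at 3.08 and 2.58 in gated cells, and Mzb1 lies near it at -8.25.

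Receptors that hold B-cell precursors in their niche were lower or did not pass the test: of 14, 5 fell and 0 rose, and against the erythroid gate 7 of 15 changed more downward and 0 more upward. Cxcr4, the receptor for the stromal chemokine Cxcl12, stood at 124, 159, 92.5, 117 and 128 CPM at E16.5 and at 63.9, 14.9, 44.2 and 38.9 CPM at P3. It fell by 1.74 ± 0.286 (edgeR adjusted p = 0.000268), library B had the lowest level, and the stages did not overlap. The erythroid gate went from 5.79 to 10.6 CPM, and the difference of changes was -2.42 ± 0.175 (edgeR adjusted p = 1.16e-07). Bst1 (BP-3, a stromal and early B ectoenzyme), Cd9 and Cd44 fell by 1.63, 1.59 and 0.92. Of 12 tested Notch receptor and target genes, 8 fell and 0 rose, while against the erythroid gate 1 of 15, Notch1, changed more upward and 2 more downward. Notch1 (20.3 to 44.5 CPM and 17.8 to 29.0 CPM) fell by 0.69 ± 0.148 with overlapping libraries, Hes1 (47.1 to 64.2 CPM and 15.2 to 34.3 CPM) by 1.50 ± 0.19 and the coactivator gene Maml1 by 1.94 ± 0.181. The change of Notch1 did not pass without libraries A and B with the homozygous label as a covariate. Notch1 and Hes1 were also lower in the P3 erythroid gate, at 4.96 against 1.74 and 3.11 against 0.742 CPM.

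Other genes were named for the size of their change. Mzb1, an endoplasmic reticulum cofactor in antibody assembly, stood at 861, 598, 999, 1089.6 and 617 CPM at E16.5 and at 4.54, 3.41, 1.07 and 2.29 CPM at P3, a mean 294-fold lower. It showed a like drop in the later B gate, from 335 to 1.70 CPM, and in the erythroid gate, from 7.64 to 0.0166 CPM. Hgs, Atp6v0c, Timm23 and Nanp went the other way in both gates: Atp6v0c, a proton pump subunit gene, was at 0.939 to 1.76 CPM and 225 to 271 CPM in gated cells and at 0.726 and 222 CPM in the erythroid gate. The matrices of the stages list 31053 and 22597 genes, and for genes that moved alike in every gate, age and gene annotation cannot be told apart. Emid1 (3.24 to 5.88 CPM at E16.5, 32.3 to 48.0 CPM at P3) changed in gated cells and stood at 0.506 and 0.621 CPM in the erythroid gate. Myl4, a myosin light chain gene, rose from 16.6 to 63.9 CPM to 172 to 268 CPM (2.44 ± 0.318) with 1.27 and 1.37 CPM in the erythroid gate. Kel, a blood group gene of red cells, and Serpina6 and Mt2, genes of hepatocytes, were among those that fell most. Serpina6 had 0 UMIs in the 4 P3 libraries, where 3 UMIs would have been 0.341 to 2.29 CPM. Of all 3155 genes lower at P3, 976 (30.9%) stood higher in the E16.5 erythroid gate than in gated cells. Of the 2969 genes higher at P3, 88 (2.96%) did so in the P3 erythroid gate.

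Division was described by 40 genes of S phase and of G2 and M phase, summed after each cell had been thinned to 2000 UMIs. Cells under 2000 UMIs were left out here and wherever shares are given after thinning, which removed 0 cells at E16.5 and in library C and left 589 of 598, 302 of 311 and 161 of 196 gated cells in A, B and D. The median sum in gated cells was 11, 14, 9, 10 and 12 UMIs at E16.5 and 14, 14, 17 and 15 UMIs at P3. In the later B gate it was 11, 15, 9, 9 and 13 UMIs at E16.5 and 3, 3, 15 and 14 UMIs at P3, so libraries A and B were low there, while their gated cells were close to those of C and D. In the erythroid gate the P3 medians were likewise split, at 2, 5, 16 and 19 UMIs.

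**Figure D4:**
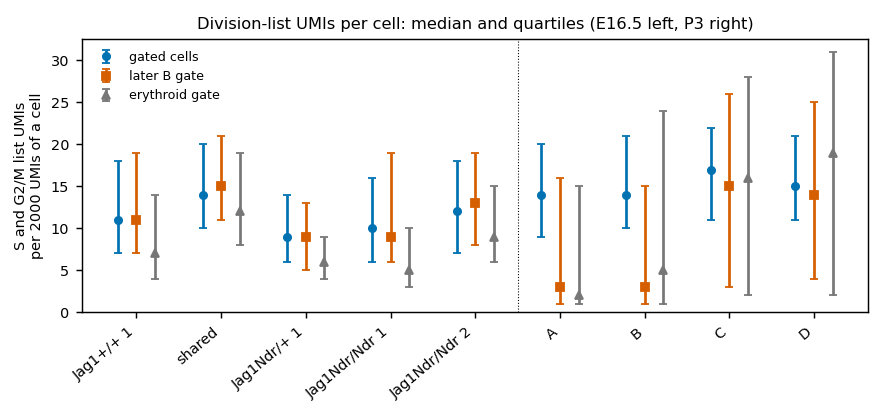
UMIs over 40 S, G2 and M phase genes of 2000 UMIs per cell (vertical axis) in gated cells, the later B gate and the erythroid gate, by library. Points are medians and bars the quartiles. Gated cells keep a median of 9 to 17 UMIs in every library, while the later B gate has a median of 3 UMIs in libraries A and B.

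Cells with at least 5 such UMIs made up 89.7%, 97.4%, 86.1%, 82.6% and 92.5% of these gated cells at E16.5 and 83.2%, 90.1%, 93.0% and 93.2% at P3. The ranges overlapped, and the means were 89.6% ± 5.69 (SD, n = 5) and 89.8% ± 4.65 (SD, n = 4), a difference of 0.195 points (exact permutation p = 0.913). With at least 3 UMIs as the boundary the difference was -3.98 points (exact permutation p = 0.0476). The part of globin UMIs in these stage values was not tested. Within the machinery, 11 of 20 S phase genes rose and 1 fell, with Mcm3, a helicase subunit gene, at 100.5 to 154 and 271 to 353 CPM. Of 20 G2 and M genes, 3 rose and 6 fell, among them Cdk1 (198 to 229 and 72.4 to 154 CPM, -1.08). In globin-poor cells the same lists gave 11 and 1, and 0 and 10. Against the erythroid gate, 17 of 20 G2 and M genes changed more downward and 0 more upward, and of the S phase genes 2 changed more upward and 4 more downward.

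Gated cells with many and with few division UMIs were then compared within each library. The planned ranges, at least 5 against 0 or 1 UMIs of 2000, left only 3 to 51 cells per library in the lower range and called 726 of 6481 genes (11.2%) higher and 405 (6.25%) lower in the upper range. A wider split, at least 15 against at most 7 UMIs and chosen after the data were seen, held 88 to 886 cells in the upper and 24 to 825 in the lower range per library. It called 2445 of 9781 genes (25%) higher and 2408 (24.6%) lower (edgeR with library as a block). The 40 division genes chose the ranges and are not results.

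Cells with many division UMIs had a lower share of surrogate light chain RNA. The gate asks for a fixed number of Vpreb1 and Igll1 UMIs. On the wider split the lower range held fewer UMIs per cell in every library (median 3006 against 7096 in library D). Reads could also have been split between Vpreb1 and Vpreb2, so Vpreb2 is not independent of the gate. The part of the gate in this difference was not tested. On the wider split Vpreb2 was at 160.2 ± 59.6 CPM in the upper and 292 ± 55.3 CPM in the lower range (SD, n = 9) and lower in 9 of 9 libraries (-1.08 ± 0.105 log2 ± SE, edgeR adjusted p = 1.78e-07). It also passed on the planned ranges, at -1.22 (edgeR adjusted p = 0.0103). Vpreb3 was lower in 9 of 9 libraries (-0.67 ± 0.0882), and did not pass on the planned ranges (-0.81, edgeR adjusted p = 0.0772). Rag1, at 96.8 ± 74.1 and 188 ± 84.5 CPM, was lower in 9 of 9 (-1.33 ± 0.193, edgeR adjusted p = 1.81e-05), and Rag2 in 6 of 9 (-0.31), which did not pass on the planned ranges (-0.57, edgeR adjusted p = 0.316). The planned ranges gave -1.56 for Rag1 (edgeR adjusted p = 0.0207), which did not pass when any 1 of the P3 libraries was left out (log2 -1.89 to -1.05 over all alternatives). Ighm was higher in 9 of 9 libraries by 0.32 ± 0.0716, Blk in 9 of 9 by 1.80 ± 0.187 and Ccnd3 in 9 of 9 by 0.60 ± 0.0882. Of 19 pre-B receptor signalling genes tested on the wider split, 3 were higher (Blk, Bach2 and Ccnd3) and 9 lower, Ccnd2 and Pik3ap1 among them. On the planned ranges Ighm (0.40, edgeR adjusted p = 0.369) and Ccnd3 (0.47, 0.184) did not pass, and Blk was under the filter on low counts. Myl4 was at 159 ± 123 and 36.8 ± 49.1 CPM and higher in 9 of 9 (2.45 ± 0.199), and it passed on the planned ranges too (3.19).

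The cells of the lower range had more RNA of resting and later B cells. Ltb, a lymphotoxin gene, stood at 29.0 ± 10.6 CPM in the upper and 180.2 ± 78.5 CPM in the lower range and was lower in 9 of 9 libraries (-2.67 ± 0.125, edgeR adjusted p = 4.78e-11), as on the planned ranges (-2.50, edgeR adjusted p = 1.09e-05). Ms4a1 was lower in 9 of 9 by 1.83 ± 0.227 and was under the filter on the planned ranges. Speer2, Gm525 and Fcrl6 were lower in 9 of 9 by 2.89, 2.42 and 2.36. Foxo1, which drives Rag transcription, and Erg were lower by 0.64 and 0.92, each in 7 of 9. Of 8 receptor genes tested that were not gate genes, 1 was higher and 5 were lower in the upper range. The 30 neutrophil, monocyte and hepatocyte markers were all lower in the upper range as well (medians -1.42, -1.54 and -2.13), as were 9 of 10 erythroid markers (median -1.49). Globin UMIs count toward the 2000 UMIs that define the ranges, and the cells of the lower range held fewer UMIs, with a median of 4385 against 15485 in library A. Their part in these differences was not tested.

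**Figure D5:**
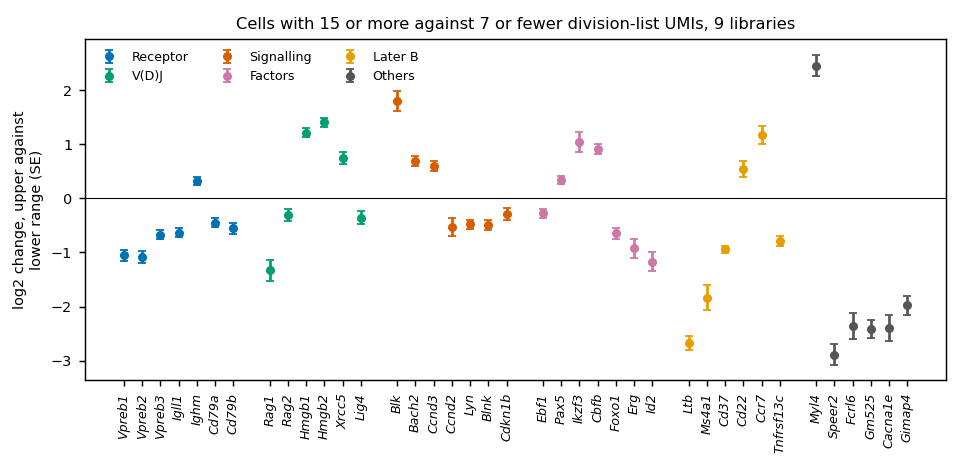
Log2 difference between gated cells with at least 15 and with at most 7 division UMIs of 2000 (vertical axis) for genes ordered by list along the horizontal axis, from the edgeR fit with library as a block. Points are estimates and bars are standard errors. Myl4 (2.45) and Blk (1.80) lie above 0, and Ltb (-2.67), Rag1 (-1.33) and Vpreb2 (-1.08) below.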

How the data were processed

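Single-cell RNA libraries of mouse liver were read as deposited counts: whole-number UMI counts per gene and barcode, not normalized. Per the submitters' processing notes, Cell Ranger 2.1.1, R 4.1.2 and Seurat were used with mm10, and the role of each is not given in the sources used here. Per the file headers, the matrices were written by later software releases, 1 for all E16.5 and another for all P3 matrices. Identical or overlapping matrices were reduced to 9 libraries, barcodes were filtered on UMIs and mitochondrial share, and the gate was applied. Counts of gated cells were summed per library, and edgeR 4.0.16 (R 4.3.3) fitted quasi-likelihood models with TMM scaling and Benjamini-Hochberg adjustment after its default filter on low counts. Shares were compared by exact permutation tests over libraries. DESeq2 1.42.0, other scalings, no filter, other gates, thinning, removal of doublets and each library left out were alternatives. Globin-poor cells, the wider division split, the comparison with the erythroid gate and the share of gated among gated and later B cells were added after the data were seen. Gated UMIs per library ranged from 1312394 to 20479190. The tests were tried on simulated data. Genes named are those of the lists that the text describes and the 12 of largest change each way among those called with at least 20 CPM in the higher group and libraries that did not overlap, without gate genes and other-cell lists. Members and lists were chosen with earlier results of these data known. Promoter windows are from RefSeq and gene coordinates from GENCODE M21, both on GRCm38. Replicate numbers were not used as pairs in the main fits. The marker that defined the erythroid gate and 2 other genes are not reported here.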

Additional observations from a re-analysis of the deposited data

Results flagged for a closer look

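Among 202 gene-by-stage groups of gated cells, 11 held a library whose distance from its nearest neighbour was large against the range of the group, where chance gives about 1 in 20 groups. At P3, library D was high for Rag1, at 76.2 CPM against 30.0 to 34.4 CPM in the other libraries, and for Myb, at 281 CPM against 222 to 228 CPM. Library B was low for Socs2, at 62.4 CPM against 82.2 to 83.1 CPM, and library A was low for Igf2bp3, at 74.0 CPM against 92.4 to 93.8 CPM. At E16.5, Jag1Ndr/Ndr replicate 1 was high for Dntt, at 1.18 CPM against 0.0704 to 0.172 CPM, and for Ms4a1, at 9.75 CPM against 4.64 to 5.63 CPM. Jag1Ndr/+ replicate 1 was low for Ccnd2, at 21.6 CPM against 42.2 to 48.1 CPM, and for Bcl6, at 2.92 CPM against 5.70 to 6.55 CPM. Jag1+/+ replicate 1 was low for Ube2c, at 566 CPM against 599 to 605 CPM. Gm10260, which was included after its values were seen, stood apart at both stages: at 0.494 CPM in E16.5 Jag1Ndr/+ replicate 1 against 233 to 326 CPM, and at 799 CPM in library B against 1.52 to 91.2 CPM.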

How the results depend on the processing

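Of 2085 values of single genes under alternatives, 2006 kept their direction and side of the threshold, 48 no longer passed, 21 newly passed and 10 reversed. The share of gated cells by stage kept its direction and passed under every alternative run (log2 -2.09 to -1.62 with 1 library left out). The genotype difference in that share reversed over Ptprc barcodes (0.017) and without Jag1Ndr/Ndr replicate 2 (0.072), with a range of -0.58 to 0.072. The stage difference in the dividing share, 0.195 points, became -3.98 with a boundary of 3 UMIs, -11.5 (exact permutation p = 0.00794) without thinning and with cells under 2000 UMIs included, -0.418 without doublets and -1.55 with the stricter gate, and ran from -1.56 to 2.41 with 1 library left out, with values of -0.692, -0.841 and -0.913 among the negative ones. Genes higher at P3 numbered 1790 without libraries A and B and with the homozygous label as covariate, and 2595 to 2980 with 1 library left out (lower, 2835 to 3140). Without the filter on low counts, the genotype fit called 7 higher and 13 lower, and the planned division ranges 1460 and 640. Those ranges called 419 higher with the G2 and M list alone, 2445 higher and 2408 lower on the wider split, 510 to 1007 higher with 1 library left out, and 197 (without library A) to 723 (without the shared library) lower. In globin-poor cells 1312 genes changed more upward than in the erythroid gate. Stage changes that reversed were Cd79b (0.59, edgeR adjusted p = 0.00430), Ltb (1.28, 0.000202) and Il7r (0.20) in globin-poor cells, where Cd79b and Ltb passed, Cd79b without Jag1Ndr/+ replicate 1 (0.015), and Il7r without doublets (0.023), Jag1Ndr/+ replicate 1 (0.0014), Jag1Ndr/Ndr replicate 2 (0.11) or library C (0.024). With 1 library left out, Cd79b ran from -0.19 to 0.015 and Il7r from -0.12 to 0.11, and over all gated cells none of these 3 genes passed with all 9 libraries, while Ltb passed, as lower at P3, when the shared library was left out. Igll1, which chose the cells and is given as description, was at -0.42 over all gated cells and 0.16 in globin-poor ones. Pax5 was at -0.0097 on the planned ranges with the G2 and M list. The cause was not tested. With the replicate number as a block, 2928 genes were higher and 3104 lower at P3 and the genotype fit called 0 and 0. Deviations of same-numbered libraries correlated at -0.11 to 0.080 across stages (11 pairs) and at 0.061 to 0.23 in the genotype comparison (3 pairs), where differently numbered pairs were at -0.23 to -0.061. In neither was every same-numbered pair over 0.1, and the numbers were not taken as pairs. In the genotype comparison, same-numbered and differently numbered values mirror each other because only 2 libraries are homozygous. They therefore cannot decide whether the numbers pair the samples. Without the library block the planned division ranges called 733 and 485. The 196 gated cells of library D limit what can be seen at low levels.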

Other observations

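Immunoglobulin heavy chain V genes differed between libraries of 1 stage. The 93 genes of the Ighv1 family summed to 49.8, 5.21, 22.3, 24.6 and 6.40 CPM at E16.5 and to 1.36, 26.6, 4.91 and 5.34 CPM in libraries A to D. Ighv1-62 gave 145, 0, 51, 65 and 0 UMIs at E16.5 and 0, 18, 1 and 0 UMIs at P3. In both cases the lowest E16.5 libraries were the shared library and Jag1Ndr/Ndr replicate 2, which carry the same replicate number.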
